A study of Mus musculus with 12 samples.

Results

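Tmem173, P2rx7, Zyx, Ptpn5 and Slco4a1 are 5 genes whose messenger RNA was lower in mouse Th17 cells given dexamethasone and also in Th17 cells given IL-1B. They were chosen by name for those lower values, so their values in each single-agent group against untreated cells are taken here as the basis of the choice. They are given as a description, without p-values, and calls on them are counted only beside the share of all genes called. All 5 were in the table of 35275 gene identifiers, and all 5 were among the 13821 genes with enough reads to be tested. Wild-type mouse naive CD4+ T cells, the source of every group, were cultured for 72 h on plate-bound antibodies to CD3 and CD28. The medium contained TGF-B, IL-6 and blocking antibodies to IFN-g and IL-4, a mixture that drives naive cells towards Th17 cells, the helper T cells that make interleukin-17. The untreated group received no further agent, the Dex group received dexamethasone (a synthetic glucocorticoid), the IL-1B group received interleukin-1 beta, and the Dex+IL-1B group received both, each for the 4 h before harvest. Each of the 4 groups held 3 RNA-seq libraries, called by the group and the number in their labels, and the ages of the mice and the doses are not given in the sources used here. The libraries are bulk samples of a culture, in which fewer cells of a type and less RNA per cell cannot be told apart.

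Dexamethasone acts through the glucocorticoid receptor, a transcription factor that raises some genes from its own DNA sites and lowers others, many of them by interfering with AP-1 and NF-kB factors. IL-1B acts through a receptor that signals by MyD88 to NF-kB and to MAP kinases, and it promotes cytokine production by Th17 cells. The 5 genes belong to different systems. Tmem173 encodes STING, the adaptor of the endoplasmic reticulum that answers the cyclic dinucleotide made by cGAS on cytosolic DNA. P2rx7 encodes P2X7, a cation channel opened by extracellular ATP, which in mouse T cells can also be opened through ADP-ribosylation and then leads to shedding of surface proteins and cell death. Zyx encodes zyxin, a LIM-domain protein of focal adhesions and actin filaments. Ptpn5 encodes STEP, a tyrosine phosphatase best known in neurons, where it acts on ERK and p38 MAP kinases and on Fyn. Slco4a1 encodes an organic anion transporter that carries thyroid hormones and prostaglandins.

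The libraries held 16904106 to 30445734 counted reads, and the 5 genes were read 106 to 8497 times per library, the fewest for Ptpn5 with both agents, where counting error weighs most. All 12 of the T cell and Th17 markers listed were detected, with a summed level of 2981 to 3777 CPM (reads per 1000000 counted reads of the scaled library) in the 12 libraries. Klf9 and Fkbp5, known targets of the glucocorticoid receptor, rose with Dex, and Nfkbia and Il17a rose with IL-1B. The other 2 receptor targets listed did not pass with Dex (edgeR), with Tsc22d3 at 41.8 and 111 CPM in untreated and Dex cells (adjusted p = 0.328) and Per1 at 74.9 and 111 CPM (adjusted p = 0.128). The libraries IL-1B 2 and Dex+IL-1B 1 stood apart by genes that overlap ribosomal RNA, with sums of 14036 and 18550 CPM, while the remaining 10 held 2328 to 5644 CPM.

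Sequences upstream of the RefSeq start sites are shown because the 5 genes were lower under agents whose known effectors bind DNA. The windows of 250 bases upstream of the start were taken from RefSeq on GRCm38.p6, which held 7 windows for 4 of the genes, and Tmem173 is named only. Capitals mark a match to TGANTCA, the AP-1 site.
P2rx7: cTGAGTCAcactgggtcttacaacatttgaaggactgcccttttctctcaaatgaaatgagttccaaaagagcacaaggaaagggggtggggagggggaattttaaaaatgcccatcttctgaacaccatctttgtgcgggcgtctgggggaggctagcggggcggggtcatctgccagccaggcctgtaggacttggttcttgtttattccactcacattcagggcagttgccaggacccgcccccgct
Zyx: agtgcggacagTGAGTCAgttctccagcac
Ptpn5: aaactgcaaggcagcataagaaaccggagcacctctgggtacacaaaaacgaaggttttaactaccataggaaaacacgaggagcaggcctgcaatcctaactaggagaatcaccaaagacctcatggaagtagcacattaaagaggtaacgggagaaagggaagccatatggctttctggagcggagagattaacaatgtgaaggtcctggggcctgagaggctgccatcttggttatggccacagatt
Slco4a1: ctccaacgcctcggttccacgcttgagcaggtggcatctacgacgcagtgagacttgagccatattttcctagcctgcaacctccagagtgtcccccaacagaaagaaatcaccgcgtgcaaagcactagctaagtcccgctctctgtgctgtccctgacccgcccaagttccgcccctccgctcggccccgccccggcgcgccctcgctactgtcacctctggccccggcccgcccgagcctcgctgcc

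The P2rx7 window is chr5:122643677-122643926 on the plus strand, and the match lay 249 to 243 bases before the RefSeq start, which is 16 bases inside the GENCODE gene. The Zyx stretch is chr6:42349696-42349725 on the plus strand, the 30 bases around a match 121 to 115 bases before the RefSeq start. That start is 198 bases inside the GENCODE gene, so the stretch lies within the gene span given for Zyx. The Ptpn5 window is chr7:47133685-47133934 on the minus strand, and the Slco4a1 window is chr2:180455995-180456244 on the plus strand. TGANTCA, searched on both strands, was found in 2 of the 7 windows and in 6.75% of all 32851 windows of the same length. The half-site of the glucocorticoid receptor, AGAACA, was searched on both strands in the same way, and was found in none of the 7 windows and in 16.1% of all windows. The full receptor site and 2 forms of the NF-kB site were also searched and not found in the 7 windows, and they are rarer, in 0.0304%, 1.41% and 4.65% of all windows. The window of Zyx held 67.6% G and C. The windows at the alternative starts differed within a gene, with 53.6% and 50% for P2rx7, 48.0% and 66.0% for Ptpn5, and 64.8% and 54.8% for Slco4a1, the printed window first. A match is a run of letters and not a measured binding site, and these letters being missing from a window says nothing of the factor.

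The 5 genes lie on 5 chromosomes and span a wide range of levels. Per kilobase of exon in untreated cells, Tmem173 stood at 95.8 CPM, above 97.1% of the genes tested. Zyx followed at 27.4 and Slco4a1 at 11.9 CPM per kilobase. P2rx7 and Ptpn5 were near the middle of the genes tested, at 6.31 and 4.88 CPM per kilobase.

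Tmem173 (ENSMUSG00000024349, minus strand of chromosome 18, 35733679 to 35740554 on GRCm38) was the most abundant of the 5. Its level was 279, 271 and 237 CPM in the untreated libraries 1, 2 and 3, and 153, 194 and 157 CPM with Dex. It was 213, 178 and 191 CPM with IL-1B and 180, 162 and 162 CPM with both agents. Each treated library was below each untreated library, while the 3 treated groups overlapped one another. The group means were 263 ± 22.2, 168 ± 22.2, 194 ± 17.6 and 168 ± 10.1 CPM (SD, n = 3 each) in untreated, Dex, IL-1B and Dex+IL-1B cells, so that 64.0%, 73.8% and 63.9% of the untreated level was left. The log2 difference from untreated cells was -0.64 ± 0.11 (SE) with Dex, -0.44 ± 0.11 with IL-1B and -0.65 ± 0.11 with both.

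P2rx7 (ENSMUSG00000029468, plus strand of chromosome 5, 122643911 to 122691432) was lower with IL-1B than with Dex. The untreated libraries held 40.1, 35.6 and 37.3 CPM, and the Dex libraries held 24.6, 28.7 and 26.3 CPM. The IL-1B libraries held 19.3, 21.1 and 16.8 CPM, and those with both agents 13.4, 13.8 and 13.4 CPM. The 4 groups were ordered untreated, Dex, IL-1B, Dex+IL-1B with no overlap between neighbours. The group means were 37.7 ± 2.24, 26.5 ± 2.07, 19.1 ± 2.11 and 13.5 ± 0.241 CPM (SD, n = 3 each), which left 70.4%, 50.6% and 35.9% of the untreated level. The log2 differences from untreated cells were -0.51 ± 0.10 with Dex, -0.98 ± 0.10 with IL-1B and -1.48 ± 0.11 with both.

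Zyx (ENSMUSG00000029860, plus strand of chromosome 6, 42349630 to 42360213) followed the same order of groups. Its level was 167, 144 and 132 CPM in untreated cells and 107, 112 and 103 CPM with Dex. With IL-1B it was 98.5, 86.1 and 91.4 CPM, and with both agents 82.0, 79.3 and 75.1 CPM. No neighbouring groups in that order overlapped, and untreated 1 was the highest library. The means were 148 ± 17.8, 107 ± 4.26, 92.0 ± 6.20 and 78.8 ± 3.48 CPM (SD, n = 3 each), with 72.6%, 62.2% and 53.3% of the untreated level left. On the log2 scale Zyx differed from untreated cells by -0.46 ± 0.09 with Dex, by -0.68 ± 0.09 with IL-1B and by -0.91 ± 0.09 with both.

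Ptpn5 (ENSMUSG00000030854, minus strand of chromosome 7, 47077795 to 47133684) showed the lowest share left with both agents. The untreated libraries held 32.2, 26.7 and 26.0 CPM, the Dex libraries 13.6, 14.7 and 13.4 CPM, and the IL-1B libraries 15.6, 14.5 and 14.6 CPM. With both agents the level was 6.69, 7.93 and 8.18 CPM. The Dex and IL-1B groups overlapped, and both lay between the untreated group and the group with both agents without touching either. The means were 28.3 ± 3.38, 13.9 ± 0.728, 14.9 ± 0.631 and 7.60 ± 0.798 CPM (SD, n = 3 each), leaving 49.0%, 52.7% and 26.8% of the untreated level. The log2 differences from untreated cells were -1.03 ± 0.12, -0.92 ± 0.12 and -1.89 ± 0.12 with Dex, IL-1B and both.

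Slco4a1 (ENSMUSG00000038963, plus strand of chromosome 2, 180456245 to 180474867) was at overlapping levels with either agent alone. The untreated libraries held 61.0, 58.3 and 52.4 CPM, and the Dex libraries 31.3, 34.7 and 25.7 CPM. The IL-1B libraries held 32.1, 25.8 and 24.9 CPM, and those with both agents 24.6, 22.1 and 20.9 CPM. The Dex and IL-1B groups overlapped, and the highest library with both agents lay just under the lowest IL-1B library. The means were 57.2 ± 4.43, 30.6 ± 4.55, 27.6 ± 3.94 and 22.5 ± 1.90 CPM (SD, n = 3 each), or 53.4%, 48.2% and 39.4% of the untreated level. The log2 differences from untreated cells were -0.91 ± 0.13, -1.05 ± 0.13 and -1.35 ± 0.13 with Dex, IL-1B and both.

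**Figure D1:**
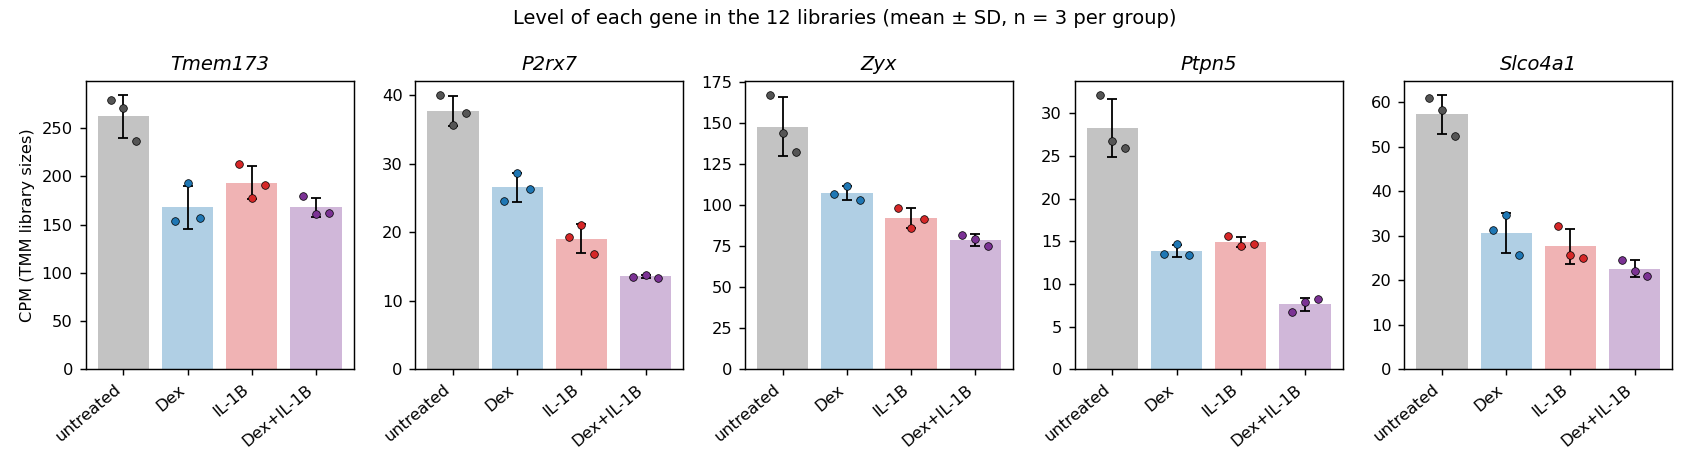
Level of each of the 5 genes in CPM in the 12 libraries, by group, with each point a library, each bar a group mean and each error bar its SD (n = 3). In each panel the 3 untreated libraries lie above all 9 treated libraries, and the libraries with both agents are lowest for P2rx7, Zyx, Ptpn5 and Slco4a1.

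By the test run across all genes (edgeR quasi-likelihood, a call at a Benjamini-Hochberg adjusted p under 0.05), all 5 genes were called lower with Dex, where 0.166% of the genes tested (23) were called lower. All 5 were also called lower with IL-1B, where 9.51% of genes were, and with both agents, where 7.82% were. Each of the 5 also lay below untreated cells without overlap in all 3 comparisons, as did 8.85%, 18.9% and 18.5% of genes tested with Dex, IL-1B and both. These counts follow from the choice of the genes. Of the 23 genes called lower with Dex, 9 were also called lower with IL-1B. The other 4 of these 9 were Egr3, Tgtp1, Ccl4 and Ccl3, and another 5 of the 23 were called higher with IL-1B, namely Ltb, Pim2, Il17f, Ccl20 and Selp. With the choice made on these values, the calls are no support for them, and with Dex 3 of the 5 rested on single libraries. Tmem173 needed each of 4 libraries for its call, untreated 1 and 2 and Dex 1 and 3. P2rx7 needed each of 8, which were untreated 1, 2 and 3, Dex 1 and 3, IL-1B 1, and Dex+IL-1B 2 and 3. Zyx also needed each of 8, which were untreated 1 and 2, Dex 1 and 3, IL-1B 1 and 3, and Dex+IL-1B 2 and 3. P2rx7 and Zyx were also not called with only the 2 groups in the fit.

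Whether the second agent lowered the 5 genes further was tested by setting the group with both agents against each single-agent group. The genes are named for their values with each agent alone, but no source used here records which comparisons picked them. The tests are not independent of the choice, since each reuses single-agent libraries that are taken as its basis. Whether the group with both agents also played a part in it is not known. A choice on low single-agent values tends to raise these differences, against a further fall. The spread of each gene was estimated over all 12 libraries. A choice by calls would favour genes with a low estimate, which tends to lower these p-values. They are therefore no independent support. There were 10 such tests, 5 genes in 2 comparisons, and their adjusted p-values are over all 13821 genes.

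When IL-1B was added to Dex, 4 of the 5 genes fell further, where 4.98% of all genes tested were called lower. P2rx7 fell by 0.97 ± 0.11 on the log2 scale (SE, n = 3 against 3, edgeR adjusted p = 1.06e-04). Ptpn5 fell by 0.86 ± 0.12 (adjusted p = 7.35e-04) and Zyx by 0.45 ± 0.09 (adjusted p = 0.00693), and the libraries of the 2 groups did not overlap for any of these 3 genes. These 3 were called in all 20 alternative settings. Slco4a1 fell by 0.44 ± 0.13 (95% interval -0.72 to -0.16, edgeR adjusted p = 0.0370), also without overlap. Its call was lost without untreated 2 (adjusted p = 0.0551), Dex 1 (0.101), Dex 2 (0.162) or Dex+IL-1B 1, 2 or 3 (0.0550, 0.0801 and 0.132), and with only the 2 groups in the fit (0.0512), and its adjusted p ranged from 0.0151 to 0.162 over the alternatives.

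Tmem173 did not follow the other 4 genes in this comparison. It held 168 CPM with Dex and 168 CPM with both agents, a log2 difference of -0.0012 ± 0.11 (95% interval -0.23 to 0.23, edgeR adjusted p = 0.995). The interval leaves room for a change of up to 0.23 in either direction and does not show that the levels were equal. The 4 genes without overlap compare with 18% of all genes tested that were lower without overlap.

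When Dex was added to IL-1B, Ptpn5 alone of the 5 fell by the test, in a comparison where 0.0289% of genes tested (4) were called lower. It fell by 0.97 ± 0.12 on the log2 scale (95% interval -1.23 to -0.70, edgeR adjusted p = 0.00344), from 14.9 to 7.60 CPM. The call was lost when only the 2 groups were fitted (adjusted p = 0.0531), and it held with each library left out. P2rx7 differed by -0.49 ± 0.11 (95% interval -0.72 to -0.26), which did not pass the threshold (edgeR adjusted p = 0.114) and passed it by DESeq2 (adjusted p = 0.0108), with a range over the alternatives of 0.0108 to 0.527.

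The other 3 genes did not pass when Dex was added to IL-1B. Slco4a1 differed by -0.30 ± 0.13 (95% interval -0.58 to -0.02, edgeR adjusted p = 0.719) and Zyx by -0.22 ± 0.09 (95% interval -0.43 to -0.02, adjusted p = 0.697). Tmem173 differed by -0.21 ± 0.11 (95% interval -0.44 to 0.02, adjusted p = 0.779), and it alone of the 5 overlapped between the groups. P2rx7, Zyx, Ptpn5 and Slco4a1 were lower without overlap, as were 4.97% of all genes tested.

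**Figure D2:**
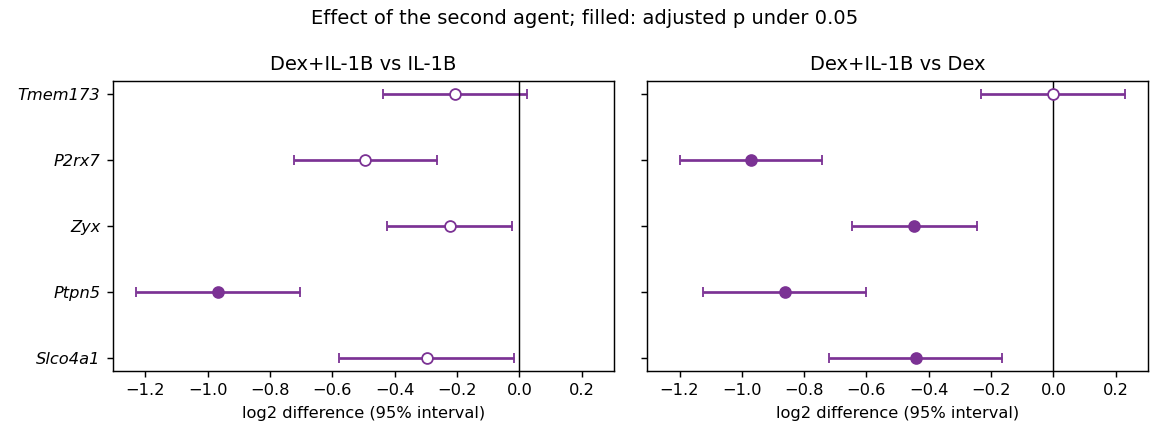
Log2 difference of the 5 genes when the second agent was added to the first, with 95% intervals from the edgeR model (3 libraries a group), in the 2 comparisons, and with filled points called at an adjusted p under 0.05. Ptpn5 lies at -0.97 when Dex was added and -0.86 when IL-1B was added, P2rx7 lies at -0.97 when IL-1B was added and -0.49 when Dex was added, and the interval of Tmem173 includes 0 in both.

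The 5 genes also differed in how the values with both agents stood beside the sum of the single-agent log2 differences, given here as a description because low single-agent values were the basis of choice. For P2rx7 the sum was -1.49 and the value with both was -1.48, a gap of 0.01 ± 0.15 (SE). For Ptpn5 the sum was -1.95 and the value -1.89, a gap of 0.06 ± 0.17. For these 2 genes the value with both agents was close to the sum. Zyx stood at -0.91 beside a sum of -1.15, a gap of 0.24 ± 0.13. Tmem173 stood at -0.65 beside -1.08, a gap of 0.44 ± 0.15, and Slco4a1 at -1.35 beside -1.96, a gap of 0.61 ± 0.18. None of these gaps is a tested result, and across all 13821 genes the interaction of the agents was called for 0 genes by edgeR (427 at an unadjusted p under 0.05) and limma-voom and for 1 by DESeq2, which was not one of the 5.

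**Figure D3:**
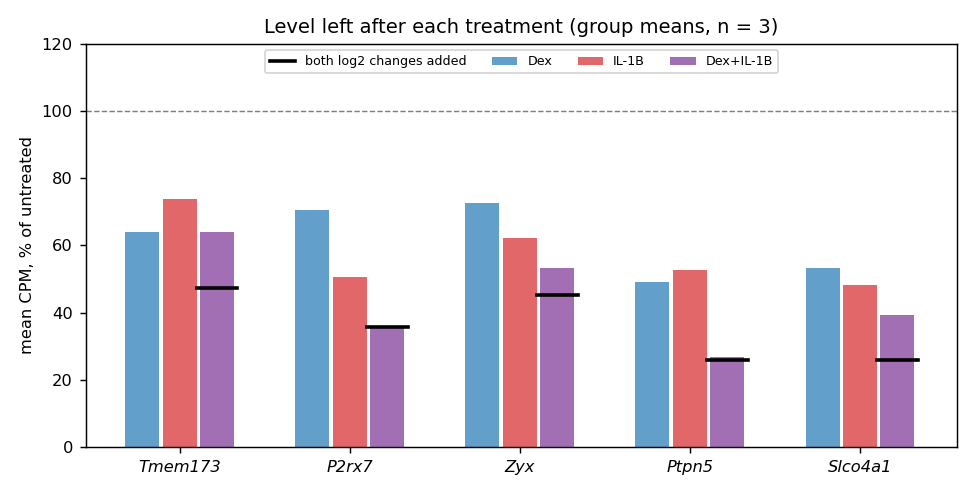
Percent of the untreated mean CPM left in each treated group for the 5 genes, as bars of group means (n = 3), with a black line at the level that the sum of the single-agent log2 differences would give. Ptpn5 is left at 26.8% and P2rx7 at 35.9% with both agents, near their lines, while Slco4a1 and Tmem173 lie above theirs.

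Libraries of one group that were high for one of Tmem173, Zyx and Slco4a1 tended to be high for the other 2. All 5 genes were above their group mean in untreated 1, Dex 2 and IL-1B 1, and none was in untreated 3, Dex 3 or IL-1B 3. In Dex+IL-1B 1, 2 and 3 the number above was 3, 3 and 1. The deviations from the group means, over the 12 libraries, had a Pearson r of 0.81 between Tmem173 and Slco4a1, 0.76 between Tmem173 and Zyx and 0.73 between Zyx and Slco4a1. The pairs with P2rx7 ran from 0.21 to 0.37. Ptpn5 stood at 0.54 with Zyx, 0.34 with Tmem173 and 0.27 with Slco4a1. These values share the library and its scaling. Summed B cell markers, 11 of 12 in the table, were 218 to 283 CPM in untreated cells, highest in untreated 1. They were 199 to 214 CPM with Dex, 186 to 207 CPM with IL-1B and 187 to 202 CPM with both. The median log2 difference of the 11 B cell markers was -0.43 with Dex and -0.39 with IL-1B, beside -0.00049 and -0.0036 for all genes tested. With Dex edgeR called 0 of them and DESeq2 called 1 lower. By edgeR 5 of the 11 had an unadjusted p under 0.05 with Dex, as did 1352 of all 13821 genes tested. With IL-1B edgeR called 3 lower, where 9.51% of all genes tested were called lower. Ighm, at -0.70, was called in all 20 alternatives, and Cd79a, at -0.91, needed untreated 1 and IL-1B 2. Summed myeloid and dendritic markers, 14 listed and 4 tested, were 8.81 to 12.9 CPM in untreated cells, again highest in untreated 1, and 6.86 to 9.65 CPM in the 9 treated libraries, with Clec9a at 0 in all 12. Markers of CD8 and NK cells, 6 of 10 tested, summed to 24.4 to 29.7 CPM in untreated cells and to 20.2 to 25.7 CPM in treated cells. Within that sum Klrd1, Prf1 and Nkg7 fell with IL-1B by 0.83, 1.22 and 1.02 on the log2 scale (edgeR adjusted p = 0.00302, 0.00726 and 0.00249), while Cd8a and Cd8b1 stood at 0.37 and 0.60 and were not called. Markers of gamma-delta T cells and innate lymphoid cells, 2 of 7 tested, summed to 3.79 to 7.32 CPM over the 12 libraries. The part of these other cell types in the lower values was not tested. Without untreated 1 the log2 difference with Dex was -0.60 for Tmem173, -0.46 for P2rx7, -0.37 for Zyx, -0.93 for Ptpn5 and -0.86 for Slco4a1.

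Among the other genes of the cGAS and STING pathway, 27 of 29 listed were tested. With Dex none was called (edgeR), 4 had an unadjusted p under 0.05 and DESeq2 called 1. With IL-1B 4 were called higher and 4 lower, and the median log2 difference of the 27 was -0.10 beside -0.0036 for all genes tested. Samhd1, which degrades deoxynucleotides, fell by 1.17 ± 0.18 on the log2 scale, from 1046 to 464 CPM (adjusted p = 0.0010). Zbp1, a sensor of Z-form nucleic acids, fell by 0.92 ± 0.15 (adjusted p = 0.00118) and Nlrc3, an inhibitor of STING signalling, by 0.67 ± 0.11 (adjusted p = 0.00107). Slc19a1, a folate carrier that in human cells imports cyclic dinucleotides, rose by 0.75 ± 0.13 (adjusted p = 0.00194), and Trim32, a ubiquitin ligase, by 0.48 ± 0.10. The call of Ulk1, a kinase of autophagy, at -0.48, was lost without untreated 1 or 2 or IL-1B 1 or 2. That of Surf4, a cargo receptor that returns STING to the endoplasmic reticulum, at 0.30, was lost without untreated 1 or 2.

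Of the other genes of extracellular ATP, NAD and adenosine, 20 of 24 listed were tested. None was called with Dex by edgeR, with 5 at an unadjusted p under 0.05 and 2 called by DESeq2. With IL-1B 2 rose and 4 fell. Nt5e, the ecto-enzyme CD73 that makes adenosine, fell by 1.28 ± 0.18 on the log2 scale, from 104 to 42.7 CPM (edgeR adjusted p = 7.94e-04). Cd38, which consumes NAD, fell by 1.33 ± 0.22 (adjusted p = 0.00125), from 4.99 to 1.98 CPM. P2ry1, a receptor for ADP, rose by 1.82 ± 0.39 (adjusted p = 0.00549), from 1.05 to 3.75 CPM. Art2b, which in mouse T cells ADP-ribosylates P2X7, stood at 2.41, 1.19, 0.683 and 0.480 CPM in untreated, Dex, IL-1B and Dex+IL-1B cells. Sequence that Art2b shares with other genes was not measured, so its count may be uncertain. Its call with IL-1B was lost without untreated 1, IL-1B 2 or IL-1B 3. Art2a-ps of the same list stood at 9.58, 6.30, 5.76 and 4.09 CPM in the same order of groups. It was not called with Dex or IL-1B alone (edgeR adjusted p = 0.443 and 0.0583). With both agents it was called lower than untreated, at -1.23 ± 0.26 (edgeR adjusted p = 0.00625). The call of Gsdmd, at -0.42, was lost without untreated 1 or 2 or IL-1B 1 or 3. That of Nlrp3, under 1 CPM in every group, was lost without untreated 1 or 2, Dex 1, IL-1B 1 or 3, or Dex+IL-1B 3.

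Among 24 tested genes of zyxin partners and actin adhesions, of 28 listed, none was called with Dex by edgeR, with 5 at an unadjusted p under 0.05 and 1 called higher and 1 lower by DESeq2. With IL-1B 5 fell and 1 rose. Evl, an Ena/VASP protein that binds zyxin, fell by 0.76 ± 0.13 on the log2 scale, from 148 to 87.4 CPM (edgeR adjusted p = 0.00167), and with Dex it stood at 98.2 CPM (adjusted p = 0.0663). Nedd9, a docking protein of adhesions, and Mrtfa, an actin-regulated cofactor of transcription, each fell by 0.46 (adjusted p = 0.00615 and 0.0042). The calls of Vcl, the adhesion protein vinculin, at -0.52, and of Tes, a LIM protein that binds zyxin, at 0.58, were lost without untreated 1 or 2, and that of Vcl also without IL-1B 1 or 2. Trip6, a relative of zyxin, at -0.68, lost its call without any one of 10 libraries, all but IL-1B 3 and Dex+IL-1B 1.

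Of 15 tested non-receptor tyrosine phosphatases, of 17 listed, Ptpn22 moved in opposite directions with the 2 agents, unlike Ptpn5. Ptpn22, which restrains T cell receptor signalling, stood at 162, 246, 84.2 and 140 CPM in untreated, Dex, IL-1B and Dex+IL-1B cells. It rose by 0.60 ± 0.10 on the log2 scale with Dex (edgeR adjusted p = 0.0172) where 0.369% of all genes rose, and fell by 0.95 ± 0.10 with IL-1B (adjusted p = 9.51e-05). Its Dex call was lost without untreated 1, 2 or 3 or Dex 1 or 3. Added to IL-1B, Dex raised it by 0.74 ± 0.10 (adjusted p = 0.00388) where 0.246% of all genes rose, a call lost only with the 2 groups alone in the fit (0.0905). With IL-1B Ptpn4, Ptpn11 and Ptpn13 were also called higher, at 0.95, 0.36 and 0.85. The Ptpn11 call was lost without untreated 2 and the Ptpn13 call without untreated 2 or 3 or IL-1B 2. Ptpn7, the closest relative of Ptpn5 here, was called lower at -0.34 ± 0.11 (adjusted p = 0.0488), a call lost without untreated 1 or 2, Dex 1, IL-1B 1 or 3 or Dex+IL-1B 3. It stood at 383, 282, 303 and 260 CPM in untreated, Dex, IL-1B and Dex+IL-1B cells. Its log2 difference with Dex was -0.44 ± 0.11 and was not called (edgeR adjusted p = 0.135). With both agents it was called lower than untreated, at -0.56 ± 0.11 (edgeR adjusted p = 0.00476), in all 20 alternatives. With Dex 4 of the 15 had an unadjusted p under 0.05, and DESeq2 called 1 higher and 1 lower.

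Of 7 listed substrates of STEP, 5 were tested. None was called with Dex by edgeR or DESeq2, and 1 had an unadjusted p under 0.05. With IL-1B 2 fell, namely Mapk3, which encodes ERK1, by 0.51 ± 0.13 (edgeR adjusted p = 0.0157, lost without untreated 2) and Fyn by 0.44 ± 0.10 (adjusted p = 0.00763). Of 22 listed genes of organic anion transport and thyroid hormone, 11 were tested, and none was called with Dex by edgeR or DESeq2, with 1 at an unadjusted p under 0.05. With IL-1B 4 were called higher and none lower by edgeR and by DESeq2. Slco3a1, of the same transporter family as Slco4a1, rose by 1.25 ± 0.22 (adjusted p = 0.00261), from 70.2 to 167 CPM. Slc7a5, an amino acid carrier that also moves thyroid hormone, rose by 0.94 ± 0.15 (adjusted p = 0.0012). The calls of Rxra and Slc3a2, at 0.54 and 0.47, were lost without untreated 1 or 2, and that of Slc3a2 also without IL-1B 1 or 3. When Dex was added to IL-1B, no gene of the STING, ATP, adhesion, STEP substrate and transport lists was called by edgeR or DESeq2, and 4, 3, 3, 0 and 2 of them had an unadjusted p under 0.05. Of all 13821 genes tested, 1352 had an unadjusted p under 0.05 with Dex and 932 when Dex was added to IL-1B (edgeR). With IL-1B 11.9% of all genes tested were called higher and 9.51% lower. Whether any list stands apart from all genes tested was not tested.

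When IL-1B was added to Dex, where 8.6% of all genes tested rose and 4.98% fell, the lists gave 10 calls higher and 14 lower. Zbp1, Nlrc3 and Slc19a1 of the STING list moved in the same direction as with IL-1B alone, by -1.11, -0.61 and 0.94 on the log2 scale (edgeR adjusted p = 5.58e-04, 0.00239 and 7.71e-04). Nt5e fell by 1.06 ± 0.18 and Adora2a, an adenosine receptor, rose by 0.70 ± 0.15. Among the phosphatases Ptpn22 fell by 0.81 ± 0.10, Ptpn14 fell by 1.04 ± 0.22 and Ptpn13 rose by 0.97 ± 0.22. These 8 calls held with each library left out.

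The other calls in that comparison rested on single libraries or on a setting. Samhd1 at -0.80 and Slc7a5 at 0.69 lost theirs without both libraries high in ribosomal RNA, and Pycard, an adaptor of inflammasomes, at -0.54, without Dex 2. Evl at -0.48 needed Dex 2 and Dex+IL-1B 1 and 3, Vcl at -0.60 needed Dex 1 and Dex+IL-1B 1 and 3, and Lims1, a LIM protein of adhesions, at -0.42, needed untreated 2, Dex 2 and 3 and Dex+IL-1B 1 and 3. Ikbke, a kinase of interferon induction, at 0.58, needed Dex 1 and 3 and Dex+IL-1B 2 and 3, and Irf7, an interferon regulatory factor, at -0.72, needed Dex 1 and 3 and Dex+IL-1B 1 and 2. Trim32 at 0.34 needed untreated 2, Dex 1, 2 and 3 and Dex+IL-1B 1 and 3. P2ry1 at 1.29 needed Dex 2 and 3 and Dex+IL-1B 1 and 3, as did Thra, a thyroid hormone receptor, at -0.49. Ptpn4 at 0.70 needed Dex 2 and Dex+IL-1B 1, and Ptpn11 at 0.36 needed Dex 2 and 3 and Dex+IL-1B 1. Mapk3 at -0.49 needed Dex 1, 2 and 3 and Dex+IL-1B 1 and 3. Slc16a10, a carrier of aromatic amino acids and thyroid hormone, at -0.34, needed Dex 1, 2 and 3 and Dex+IL-1B 2 and 3. Ptpn23 at 0.27 needed 10 of the 12 libraries, all but IL-1B 2 and 3.

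**Figure D4:**
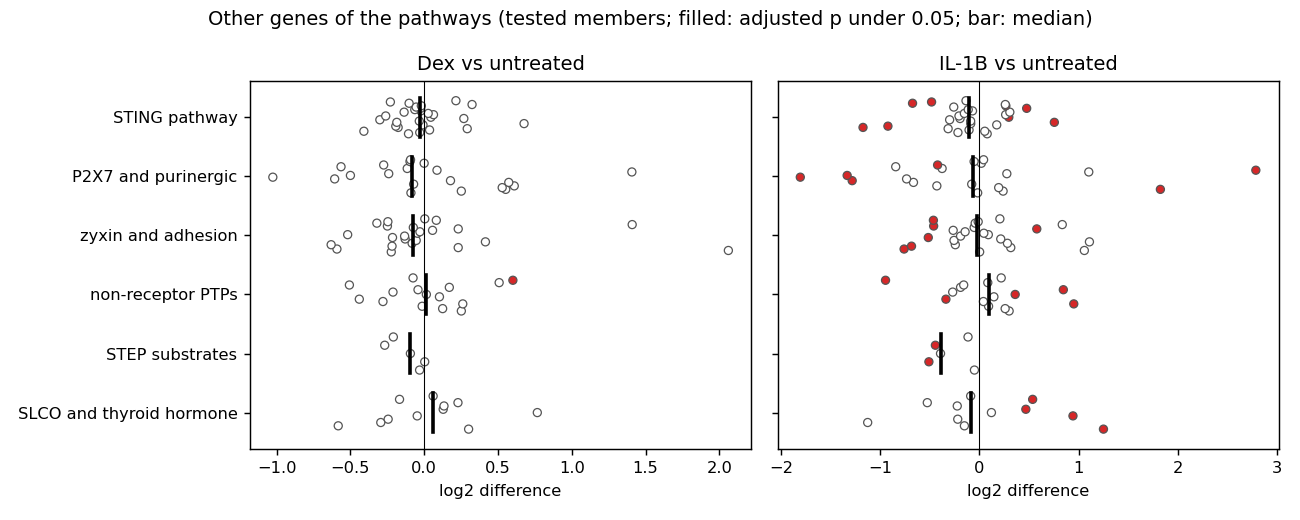
Log2 difference from untreated cells (x axis) of the tested genes in each of the 6 lists, without the 5 members, with Dex at left and IL-1B at right, as edgeR estimates from 3 libraries a group. Filled points were called and thick bars mark list medians. With Dex the one filled point is Ptpn22 at 0.60, and with IL-1B filled points lie on both sides of 0 in 4 lists.

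Among the 10 nearest tested protein-coding neighbours that do not overlap a member, none was called with Dex by edgeR and none had an unadjusted p under 0.05. P2rx4, another ATP-gated channel 16112 bases from P2rx7 on the same strand, held 21.8, 20.5, 21.5 and 21.5 CPM in the 4 groups. With IL-1B 1700066B19Rik, 2810 bases from Tmem173, was lower, at -0.59 ± 0.19 (edgeR adjusted p = 0.0395). Zdhhc13, the nearest such gene on one side of Ptpn5 but 1655319 bases away, was higher, at 0.54 ± 0.11 (adjusted p = 0.00392). Without a known strand setting, reads of a gene and of one on its opposite strand cannot be told apart. Epha1, a tested coding gene, overlaps Zyx on the opposite strand and had 163 reads over the 12 libraries together. It stood at 0.966, 0.604, 0.578 and 0.226 CPM in untreated, Dex, IL-1B and Dex+IL-1B cells. Against untreated cells it was not called with either agent alone, at -0.68 ± 0.55 with Dex and -0.73 ± 0.57 with IL-1B. With both agents it was called lower, at -2.09 ± 0.63 (edgeR adjusted p = 0.0347). Gm14377, antisense to Ptpn5, and Gm44284, antisense to Zyx, were not among the gene identifiers counted, so neither could be analysed. Of the 50-base stretches of their transcripts, 2.44% for Zyx, 1.17% for P2rx7 and 0.286% for Ptpn5 were shared with another gene, and none for Tmem173 or Slco4a1.

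**Figure D5:**
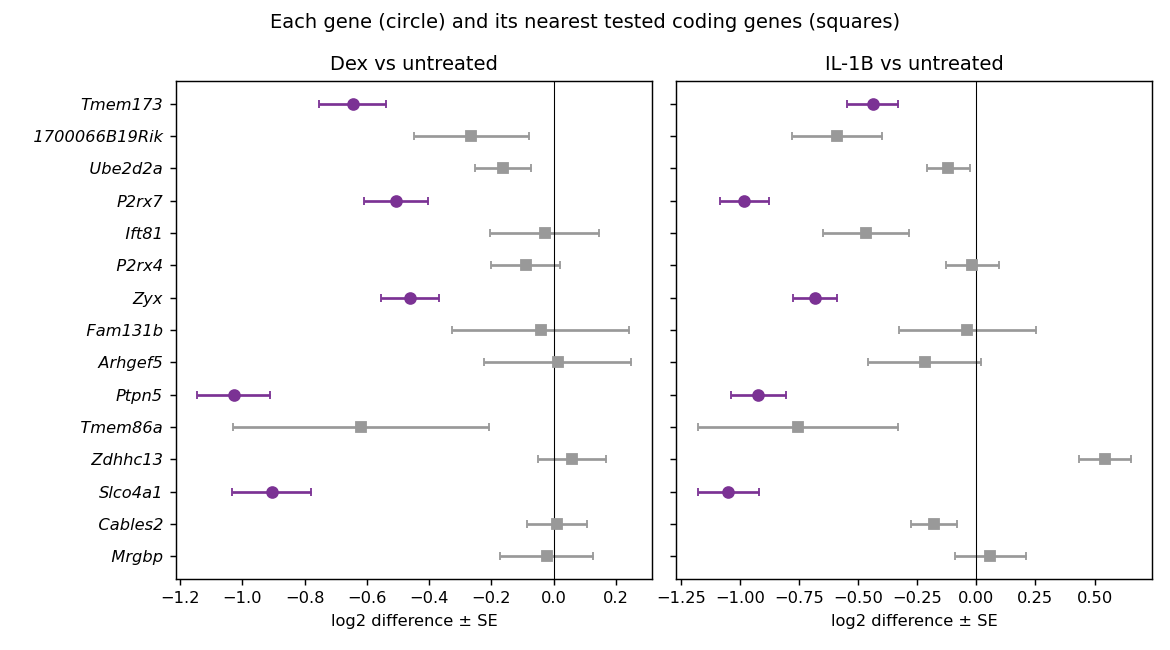
Log2 differences from untreated cells for the 5 genes and for their nearest tested coding neighbours on each side (squares), with Dex and with IL-1B (edgeR estimates ± SE, 3 libraries a group). The members lie between -1.05 and -0.44, and P2rx4, beside P2rx7, lies near 0 with either agent.

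The genes whose levels were most like those of the members over the 12 libraries were taken from 9493 protein-coding genes by Pearson r of log2 CPM, as a description. The genes like Tmem173 included Fam49a and Arhgef3, both at 0.93. P2rx7 was most like Ehd3, Bach1 and Atp2a3, at 0.97, 0.97 and 0.96. Zyx was most like Car5b, Mical1 and Egr2, at 0.985, 0.984 and 0.978, and Ptpn5 most like Elk3, Myadm and Ccl4, at 0.97, 0.95 and 0.94. For Slco4a1 the nearest gene was Zyx itself, at 0.96, and Car5b and Mical1 followed at 0.96 and 0.95, as they did for Zyx. Between members r ran from 0.69 for P2rx7 and Tmem173 to 0.96 for Zyx and Slco4a1. The points share libraries and groups, which sets much of these values.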

How the data were processed

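The table deposited by the authors gives unnormalized integer counts of reads by gene for 12 libraries, and 0 of its columns went unused. Per the submitters' processing notes, the builds were GRCm38 and mm10, and HTSeq 0.6.1, DESeq2 and STAR 2.7.0a are listed with no settings. The strand setting is not given in the sources used here. Symbols, positions and exon lengths came from GENCODE M21 on GRCm38.

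Counts were scaled by TMM and tested in R 4.3.3 with edgeR 4.0.16 (robust quasi-likelihood, one-way model of the 4 groups, 8 residual degrees of freedom, genes kept by the edgeR filter on group). The p-values were adjusted by Benjamini-Hochberg across all 13821 tested genes. CPM is reads per 1000000 reads of the TMM-scaled library, and log2 CPM used a prior count of 2. Alternatives were DESeq2 1.42.0, limma-voom 3.58.1, median-ratio scaling, 2 filters, only the groups compared, a replicate block, each library left out, and both libraries high in ribosomal RNA left out. The fit was tested on simulated counts in which randomly picked genes were changed in the group with both agents. For both agents against IL-1B, 32.8% of genes changed 1.5-fold, 58.2% changed 2-fold and 86.4% changed 4-fold were called. For both agents against Dex these shares were 34.3%, 56.7% and 83.3%. Many changes of 2-fold or less were therefore missed, so a gene not called is not shown to be unchanged.

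The members and the gene lists were chosen with earlier results of these data known. Named genes were the members, the list genes called in a comparison described, the nearest neighbours, and the 3 most alike genes per member with at least 5 CPM in the highest group. Genes called lower than untreated both with Dex alone and with IL-1B alone were named too. Results of some genes that this rule names are not reported here. The 5 genes called lower with Dex and higher with IL-1B were named after their values were seen. Whether replicate libraries are from different cultures or animals is not stated in the labels, and the p-values then reflect only how these samples spread, possibly for technical reasons. Depth limits counting error alone, since PCR duplicates cannot be told from separate molecules.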

Additional observations from a re-analysis of the deposited data

How the results depend on the processing

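The count of genes lower with Dex than in untreated cells was the least stable: 23 by edgeR, 130 by DESeq2, 59 with no filter on low counts, 103 without the libraries high in ribosomal RNA, and 4 to 126 with one library left out. It was 4 without Dex 1 or Dex 3, 6 without untreated 1 or 2, 13 without Dex+IL-1B 3, 42 without IL-1B 2, 45 without untreated 3 and 126 without Dex 2. Genes lower with both agents than with IL-1B numbered 4, with 25 by DESeq2, 7 with a filter of 1 CPM, 2 with only the 2 groups and 3 to 7 with one library left out (7 without Dex 2). Left-out libraries moved the count from 688 to between 277 and 1018 for both agents against Dex (277 without Dex 2, 425 without Dex 3, 301 without Dex+IL-1B 1, 357 without Dex+IL-1B 3), from 1081 to between 608 and 1445 for both against untreated (706 without untreated 1, 608 without untreated 2, 686 without Dex+IL-1B 3), and from 1315 to between 735 and 1567 for IL-1B against untreated (839 without untreated 1, 735 without untreated 2). Of the 5 genes, 1 was called lower when Dex was added to IL-1B, 2 by DESeq2 and 0 with only the 2 groups. The log2 difference of Tmem173 when IL-1B was added to Dex turned positive by limma-voom (0.0052), and ran from -0.056 to 0.113 with one library left out, highest without Dex 2. The cause was not tested. Deviations of same-numbered libraries had r from -0.214 to 0.184, over 0.1 in 5 of 18 pairs, which is short of every pair. The 6 pairs numbered 3 were all above 0 (0.011 to 0.184), and the best match of a library carried its own number for 4 of 12. The numbers were therefore not taken to pair the samples. A replicate block gave 20 genes lower with Dex and 660 for both agents against Dex, and 4 of the 5 genes called lower in the latter. The block also ended the Dex call of P2rx7 (adjusted p = 0.0641), the IL-1B call of Art2b (0.0533) and, for both agents against Dex, those of Trim32 (0.0577), P2ry1 (0.0511) and Ptpn23 (0.0505). With 3 libraries a group, small differences of the 5 genes could not be told from 0.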
